A study of Mus musculus with 9 samples.

Results

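The genes examined here are 10 members of the fibroblast growth factor (FGF) signalling cascade of the limb bud: the ligand gene Fgf10, the receptor genes Fgfr1 and Fgfr2, the feedback inhibitor genes Spry1, Spry2, Spry4, Dusp6 and Il17rd, and the ETS transcription factor genes Etv4 and Etv5. They were chosen by name, among 21911 protein-coding genes of the GENCODE M21 annotation, as genes whose activity in limb mesenchyme reads out signalling between the apical ridge and the mesenchyme. Their peaks were those within the gene span and 50 kb on each side, which gave 121 of 25096 peaks of the wild type (WT) list, 155 of 32085 peaks of the Shh-/- list and 147 of 34641 peaks of the Shh-/-;Gli3-/- list. Forelimb buds of E10.5 mouse embryos with 33 to 34 somites were used for MicroChIP-seq (ChIP-seq scaled down to very little tissue) of the acetylated histone H3K27ac, which marks promoters and enhancers in use. The WT embryos carried functional Shh and Gli3, the Shh-/- embryos lacked Shh, which encodes the Sonic hedgehog ligand, and the Shh-/-;Gli3-/- embryos lacked Shh together with Gli3, which encodes the main transcriptional repressor of the Hedgehog pathway. The labels give a mixed strain for every sample, while the study's methods place the Gli3 and Shh null alleles on Swiss Webster. Each genotype had 2 H3K27ac libraries, each from the forelimb buds of 1 embryo, and 1 input library. The authors deposited 1 peak list per genotype, so the spread between embryos is unknown, no test was run, and each fold is a comparison of 1 list with 1 list.

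In the limb bud, FGF10 from the mesenchyme signals to the ectoderm through an isoform of FGFR2, and FGFs of the apical ectodermal ridge signal back to the mesenchyme through FGFR1 and FGFR2. Inside the responding cell the RAS-MAPK cascade switches on ETV4 and ETV5, which act as transcription factors, and a set of inhibitors that damp the same cascade: the Sprouty proteins, the MAPK phosphatase DUSP6 and the membrane protein IL17RD, also called SEF. SHH from the posterior mesenchyme and the ridge FGFs are known to sustain each other. The mark was measured in whole limb buds, so fewer acetylated cells and less acetylation per cell cannot be told apart.

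The sequences below show where the results at the main genes lie, apart from the Spry4 locus: the Fgf10 promoter, the distal place with the most covered bp in the Shh-/-;Gli3-/- list at Fgf10, Fgfr1, Spry2 and Il17rd, the corresponding place at Dusp6 with a further Dusp6 place that had no WT peak, and the only GLI match among the distal peaks. They were chosen with the values known. The Fgf10 promoter was taken from RefSeq (GRCm38.p6) and covers 250 bases before and 50 after the transcription start, the latter in capitals. The others are 200 bases of the plus strand of GRCm38 around the position at which the peak caller's statistic was largest, with that 50 bp bin in capitals, except in the last, where the capitals mark the GLI match. The distances are from the nearest start of a coding transcript of the gene.
Fgf10 promoter, chr13:118714449-118714748: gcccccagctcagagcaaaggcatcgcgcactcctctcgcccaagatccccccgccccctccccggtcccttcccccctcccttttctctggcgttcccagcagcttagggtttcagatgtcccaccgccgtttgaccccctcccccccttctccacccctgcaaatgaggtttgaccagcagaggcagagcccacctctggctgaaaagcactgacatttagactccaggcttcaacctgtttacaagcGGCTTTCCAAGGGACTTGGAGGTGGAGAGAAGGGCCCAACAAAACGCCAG
Fgf10 intron, +21.8 kb, chr13:118736676-118736875: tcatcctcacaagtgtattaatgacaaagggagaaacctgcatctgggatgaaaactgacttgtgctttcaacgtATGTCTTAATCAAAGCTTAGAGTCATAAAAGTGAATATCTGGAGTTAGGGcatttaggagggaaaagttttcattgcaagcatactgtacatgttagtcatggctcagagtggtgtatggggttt
Fgfr1 intron, +12.5 kb, chr8:25544176-25544375: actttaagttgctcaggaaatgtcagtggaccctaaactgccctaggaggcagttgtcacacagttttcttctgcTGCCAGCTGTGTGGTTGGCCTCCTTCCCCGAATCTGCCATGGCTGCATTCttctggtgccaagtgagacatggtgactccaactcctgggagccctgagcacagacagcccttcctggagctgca
Spry2, -24.2 kb, chr14:105920776-105920975: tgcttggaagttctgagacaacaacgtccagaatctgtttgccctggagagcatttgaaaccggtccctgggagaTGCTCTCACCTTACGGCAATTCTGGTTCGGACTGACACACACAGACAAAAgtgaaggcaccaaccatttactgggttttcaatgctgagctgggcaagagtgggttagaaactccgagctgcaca
Dusp6, +36.6 kb, chr10:99299826-99300025: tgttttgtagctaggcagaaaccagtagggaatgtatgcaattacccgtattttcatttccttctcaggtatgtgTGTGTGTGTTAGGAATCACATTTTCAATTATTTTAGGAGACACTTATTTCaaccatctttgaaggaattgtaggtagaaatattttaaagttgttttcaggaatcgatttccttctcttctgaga
Dusp6, +23.5 kb, chr10:99286476-99286675: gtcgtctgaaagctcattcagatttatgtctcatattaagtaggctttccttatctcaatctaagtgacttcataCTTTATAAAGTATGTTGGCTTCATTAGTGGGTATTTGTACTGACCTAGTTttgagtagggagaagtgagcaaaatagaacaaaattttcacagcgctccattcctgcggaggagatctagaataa
Il17rd, +4.48 kb, chr14:27071326-27071525: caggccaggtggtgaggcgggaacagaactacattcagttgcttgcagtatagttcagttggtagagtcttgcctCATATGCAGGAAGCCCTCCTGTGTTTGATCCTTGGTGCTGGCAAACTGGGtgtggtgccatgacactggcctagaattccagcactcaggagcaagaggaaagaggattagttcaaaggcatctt
Fgfr1 intron, GLI match, chr8:25543076-25543275: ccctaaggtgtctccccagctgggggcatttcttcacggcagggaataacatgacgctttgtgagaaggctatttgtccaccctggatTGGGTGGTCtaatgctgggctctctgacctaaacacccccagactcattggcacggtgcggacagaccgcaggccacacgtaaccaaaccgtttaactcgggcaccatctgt

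The Shh-/- and Shh-/-;Gli3-/- lists were larger than the WT list throughout the genome, so the totals at any set of genes have to be read beside the lists' own. Covered bp, the number of bases lying under peaks, was 1.25 times the WT value in the Shh-/- list and 1.66 times in the Shh-/-;Gli3-/- list over all peaks. For distal peaks, those that touch no promoter window (2 kb before to 1 kb after a coding transcript start), the same ratios were 1.48 and 2.57. The mean peak width was 412 bp in the WT, 404 bp in the Shh-/- and 495 bp in the Shh-/-;Gli3-/- list. Promoters of 10 of 10 limb mesenchyme marker genes had a peak in each list, whereas of 10 limb ectoderm and ridge genes 1 (Tfap2a) had one in the WT and Shh-/-;Gli3-/- lists and 2 (with Dlx5) in the Shh-/- list. Trp63, Krt5, Krt8, Krt14, Epcam, Cdh1, Sp8 and Wnt7a had no promoter peak in any list, so the values describe mainly mesenchyme. Of 3 hindlimb, 6 endothelial, 5 muscle precursor and 4 neural marker genes, 0 had a promoter peak in the WT and Shh-/- lists, and 3 (Pecam1, Lbx1 and Met) had one in the Shh-/-;Gli3-/- list, covering 350 bp in each of the endothelial and muscle precursor lists. The window of Shh held no peak in any list. The window of Gli3 held 13, 18 and 14 peaks covering 7050, 7200 and 14250 bp in the WT, Shh-/- and Shh-/-;Gli3-/- lists. Peaks at the promoter of Gli3 covered 4100, 3900 and 5100 bp.

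The first comparison asked whether the FGF genes lost H3K27ac when SHH was absent. All 10 genes kept a promoter peak in the Shh-/- list, 9 of the 10 windows had more covered bp than in WT, beside 73% of 14439 coding genes, and the exception was Fgf10. Over the 10 windows together 57200 bp were covered in the WT list and 67200 bp in the Shh-/- list, a ratio of 1.17 beside 1.25 for the whole lists. Divided by the total of its list, the coverage in Shh-/- was 0.939 times that in WT. The gene span of Fgfr2 in the annotation is 2961 kb, because a single transcript starts far outside the gene, so its window holds many other genes. With the RefSeq span of Fgfr2 (104 kb) in its place the totals were 35650 and 43750 bp, a ratio of 1.23. Etv5 alone reached 1.5 times the WT coverage, with 1350 against 750 bp, which is 1 of 10 genes beside 27.1% of 14439 coding genes. None of the 10 was lower by 1.5 times, beside 4.16% of these genes. The median ratio was 1.28 over the 10 genes and 1.2 over all genes with a peak in both lists. The count of higher genes was 6 of 9 with distal peaks only, 4 with a log2 fold of at least 3 and 0 with coverage divided by the list total. Shares over all coding genes were not computed under these settings, so these counts have no background beside them. Distal coverage of the whole Shh-/- list was itself 1.48 times that of WT.

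The second comparison asked how the same windows looked when GLI3 was absent as well as SHH. The Shh-/-;Gli3-/- list covered 98900 bp in the 10 windows, 1.73 times the WT value and 1.47 times the Shh-/- value. With the RefSeq span of Fgfr2 it covered 66400 bp, and the ratios were 1.86 and 1.52. Against WT, 8 of 10 genes (all but Fgfr2 and Etv4) were higher by at least 1.5 times, beside 36.4% of 14661 coding genes, and 0 were lower, beside 1.86%. Against Shh-/-, 4 of 10 (Fgf10, Spry4, Dusp6 and Etv5) were higher, beside 18.8% of 14981 genes, and 0 were lower, beside 7.14%. Fgfr2 turned, with the RefSeq span, from 1.48 to 0.8 against WT and from 1.34 to 0.552 against Shh-/-, which made 1 gene lower in the latter comparison. The median ratios were 1.72 and 1.4 over the 10 genes and 1.32 and 1.1 over all genes. The whole Shh-/-;Gli3-/- list was larger by 1.66 times, and after division by the list totals the members' coverage was 1.04 times that in WT, with 2 genes higher and 1 lower by 1.5 times. The count of higher genes was likewise 2 when the lists were cut to equal covered length. Shares over all coding genes were not computed under these settings.

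**Figure D1:**
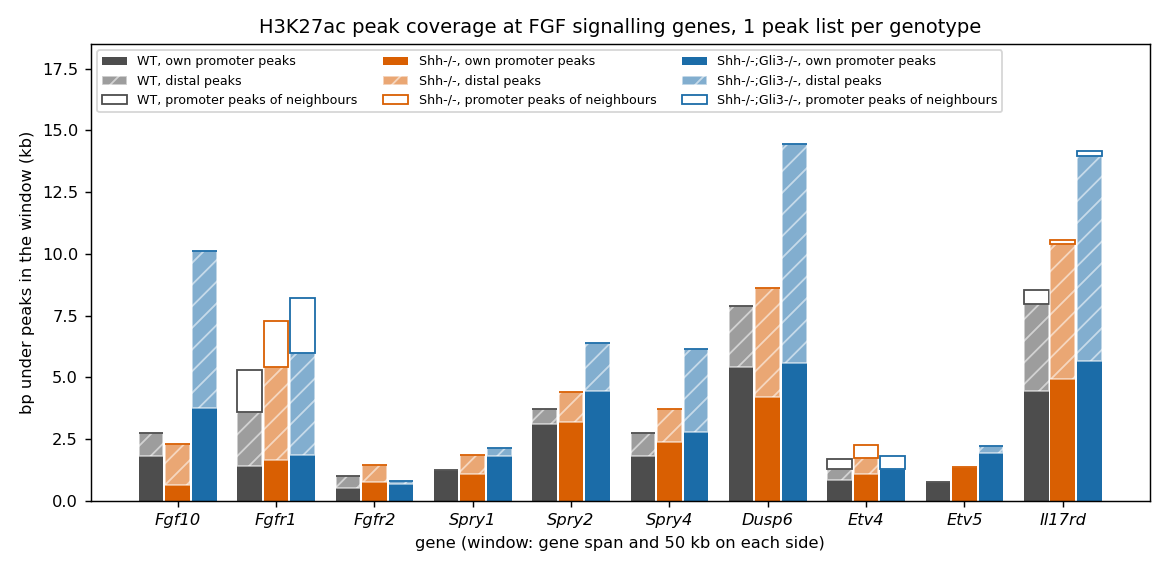
Bars give the kb under H3K27ac peaks in the window of each gene for the WT (grey), Shh-/- (orange) and Shh-/-;Gli3-/- (blue) lists, split into the gene's own promoter peaks (solid), distal peaks (hatched) and promoter peaks of neighbouring genes (open), with the RefSeq span for Fgfr2. Dusp6, Il17rd and Fgf10 had the most covered bp in the Shh-/-;Gli3-/- list (14450, 14150 and 10100 bp), and Fgf10 was the only gene with less in Shh-/- than in WT.

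**Figure D2:**
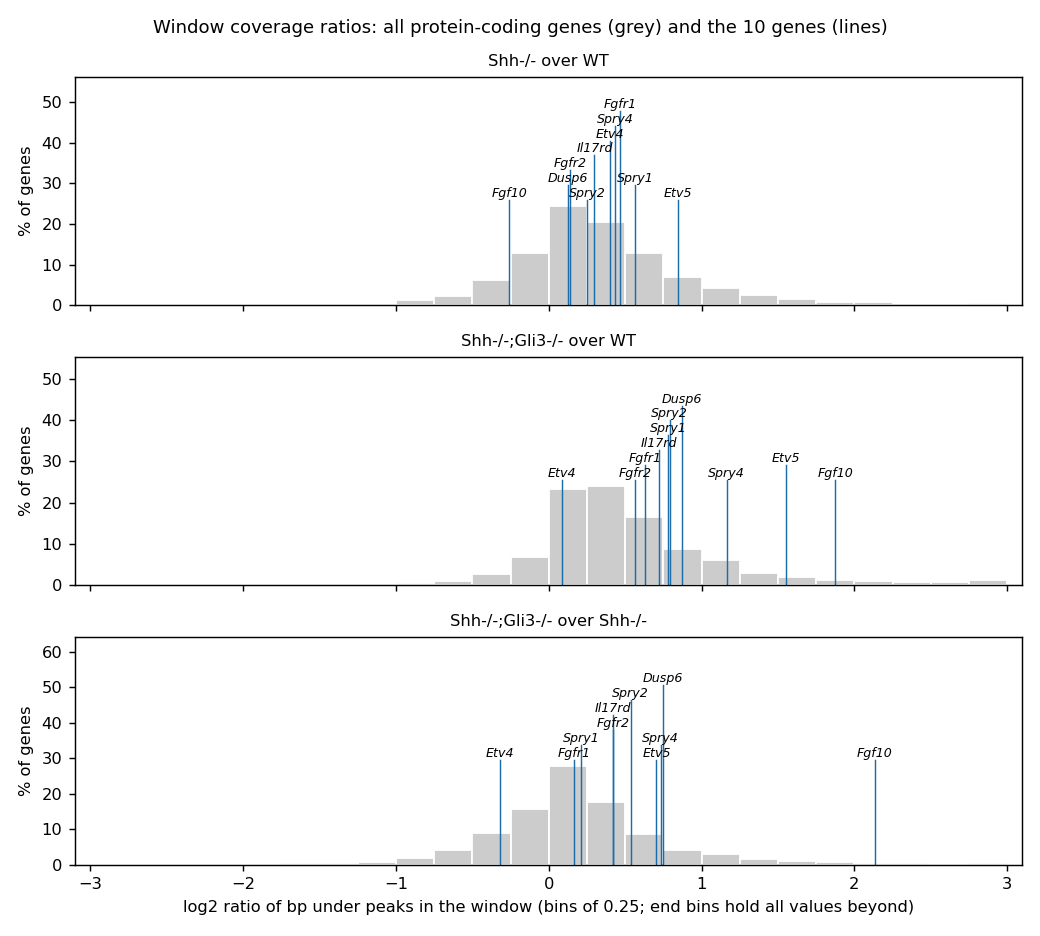
Grey bars give the percentage of protein-coding genes at each log2 ratio of covered bp between the lists named above each panel, and blue lines mark the 10 genes by their annotated windows. Fgf10 lay toward the low end for Shh-/- over WT (ratio 0.836) and toward the high end in the other panels (3.67 and 4.39).

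Fgf10 (chr13:118669791-118792115, plus strand), which encodes the mesenchymal ligand, showed the widest spread between lists. Its window held 2750 bp in 8 peaks in WT, 2300 bp in 11 peaks in Shh-/- and 10100 bp in 23 peaks in Shh-/-;Gli3-/-. Fgf10 was thus lowest in Shh-/- and highest in the double mutant, and its ratio of 0.836 for Shh-/- over WT exceeded that of 11% of all genes, while its 4.39 for Shh-/-;Gli3-/- over Shh-/- exceeded that of 98.5%. The lower value in Shh-/- came from the promoter. There, 4 WT peaks of 250 to 650 bp covered 1800 bp, 4 Shh-/- peaks of 150 to 200 bp covered 650 bp, and 1 Shh-/-;Gli3-/- peak (chr13:118713000-118716749) covered 3750 bp without a break. The double mutant peak also spanned a WT peak of 400 bp (log2 fold 3.41) and a Shh-/- peak of 250 bp (FDR 0.00493) that lay beyond the promoter window and were classed as distal. Over the same 3750 bp stretch the coverage was 2200 bp in WT, 900 bp in Shh-/- and 3750 bp in the double mutant. The ratio of Shh-/- to WT was 0.409 over the stretch and 0.361 for promoter peaks, and that of the double mutant to WT was 1.7 and 2.08. Of the Shh-/- promoter peaks, 1 of the 4 had a false discovery rate (FDR) below 0.05, at 0.0329, beside 3 of 4 in WT, the lowest at 0.00166. Among Shh-/- peaks with a log2 fold of at least 3, or a width of at least 500 bp, or in the list cut to equal covered length, none lay in the Fgf10 promoter window, while the promoter ratio of the double mutant to WT was between 1.7 and 3.12 under the 7 alternatives run for promoters.

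Beyond the Fgf10 promoter Shh-/- differed from WT in the other direction, and distal coverage was higher than in WT in both mutants. Distal peaks covered 950 bp in WT, 1650 bp in Shh-/- and 6350 bp in Shh-/-;Gli3-/-. The ratios to WT were 1.74 and 6.68, beside 1.48 and 2.57 for distal peaks of the whole lists. Peaks of the 3 lists that overlapped one another were joined into places, and 18 of 25 distal places at Fgf10 held a Shh-/-;Gli3-/- peak alone. Of 22 Shh-/-;Gli3-/- distal peaks there, 1 overlapped a WT peak, beside 22.7% over the whole list. The 18 places formed 3 groups: 9 places of 100 to 450 bp in an intron from 2.3 to 7.98 kb after the start, a few further ones from 20.5 to 77.4 kb, and 5 in the intergenic stretch from 104 to 110 kb. The strongest of the last group, at chr13:118820100-118820449, had a log2 fold of 3.44 over input and an FDR of 0.000825. The widest distal place, the intronic one at +21.8 kb whose sequence is printed above (chr13:118735900-118737149), held 0 bp in WT, 200 bp in Shh-/- and 1100 bp in Shh-/-;Gli3-/-. The intronic place at +17.5 kb had a peak in each list, with 250, 450 and 750 bp.

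**Figure D3:**
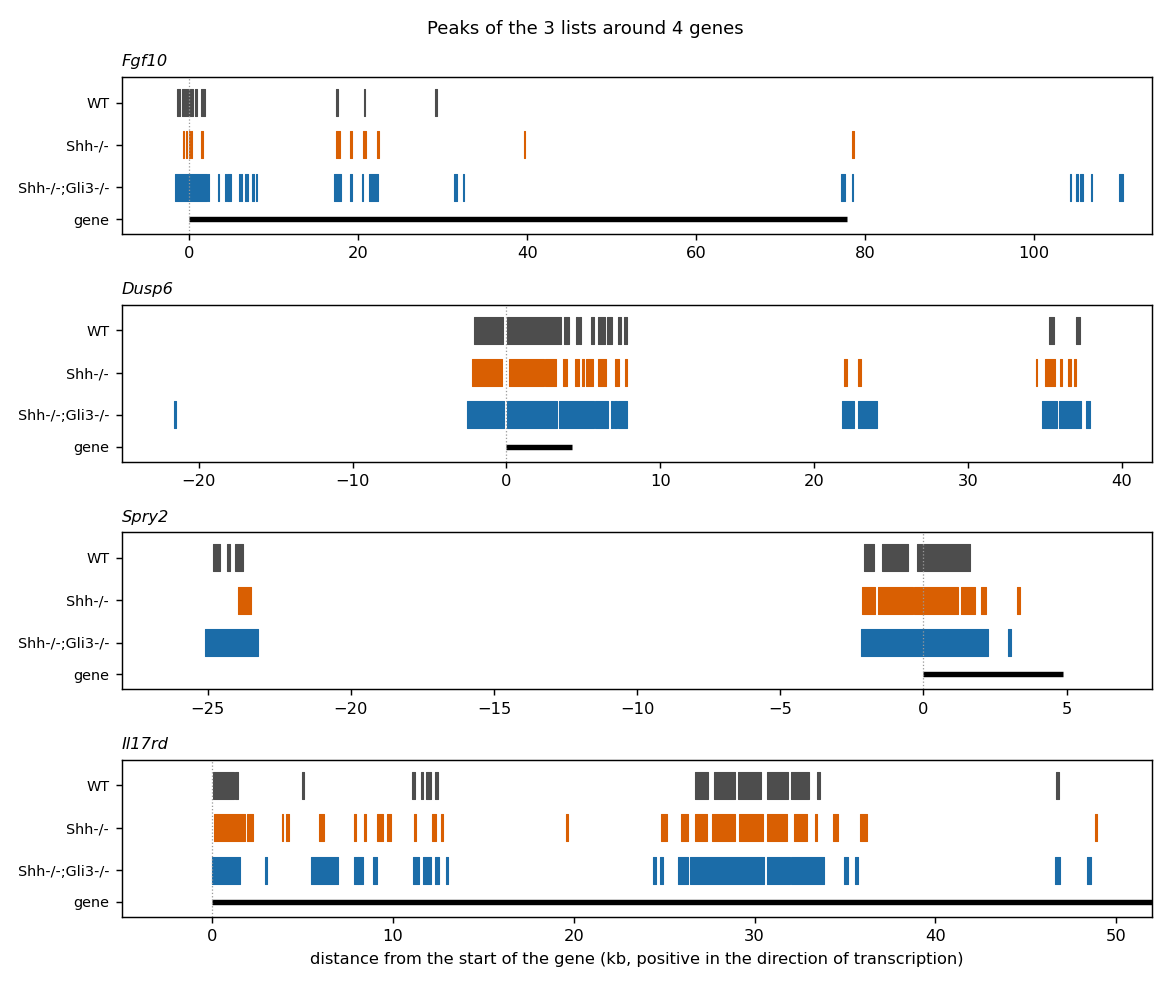
Coloured blocks show the peaks of the WT, Shh-/- and Shh-/-;Gli3-/- lists around Fgf10, Dusp6, Spry2 and Il17rd, by distance in kb from the start of the RefSeq gene, with the gene as a black line. The Fgf10 promoter was split into small blocks in Shh-/- and was 1 block of 3750 bp in Shh-/-;Gli3-/-, where the Dusp6 places at 22.2 and 23.5 kb, without a WT peak, were also broad.

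Of the receptors, Fgfr1 had broad peaks in every list and Fgfr2 had little. Fgfr1 (chr8:25513654-25575718, plus strand), the main FGF receptor of the mesenchyme, had 5300, 7300 and 8200 bp in the WT, Shh-/- and Shh-/-;Gli3-/- windows, and its promoter was a single peak of 1400, 1650 and 1850 bp. The Letm2 and Nsd3 promoters in this window held 1700, 1900 and 2200 bp of these totals. Its broadest distal place, in an intron 12.5 kb from the nearest start, had 950, 1400 and 2100 bp, and the one beside it, at +10.8 kb, had 300, 300 and 850 bp. Both therefore carried a peak in the absence of SHH. Fgfr2 (RefSeq chr7:130162451-130266808, minus strand), the receptor of the ectoderm and of the mesenchyme, had 1000, 1450 and 800 bp in its RefSeq window, of which 500, 750 and 700 bp lay at the promoter. None of its 2 WT distal peaks overlapped a peak of either mutant list. An intronic WT peak 83.8 kb from the start (350 bp, FDR 0.00191) was the stronger of them.

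The Sprouty genes encode intracellular inhibitors of receptor tyrosine kinase signalling and are standard readouts of FGF activity. Spry2 (chr14:105891947-105896819, minus strand) had 3700, 4400 and 6400 bp, most of it at the promoter, where 3 WT peaks covered 3100 bp, 3 Shh-/- peaks 3200 bp and 1 Shh-/-;Gli3-/- peak 4450 bp. The last also spanned Shh-/- peaks of 150 and 500 bp classed as distal, and over the same stretch the coverage was 3100, 3850 and 4450 bp. Its only broad distal place lay 24.2 kb upstream in intergenic sequence (chr14:105920050-105921899). It held 3 narrow WT peaks summing to 600 bp, a Shh-/- peak of 450 bp and a Shh-/-;Gli3-/- peak of 1850 bp. Spry1 (chr3:37639947-37644598, plus strand) had 1250, 1850 and 2150 bp. At its promoter the values were 1250, 1100 and 1800 bp, and no WT peak was distal. A place 22.6 kb upstream held 300 bp in Shh-/- (log2 fold 3.37) and 200 bp in Shh-/-;Gli3-/-.

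Spry4 lay on chromosome 18 (minus strand) and had 2750, 3700 and 6150 bp, with 1800, 2400 and 2800 bp at the promoter. Its distal coverage was 950 bp in WT, 1300 bp in Shh-/- and 3350 bp in Shh-/-;Gli3-/-, so the distal part differed more between lists than the promoter. The double mutant exceeded WT by 2.24 times over the whole window, a ratio larger than that of 88.7% of all genes. Peaks on either side of the gene accounted for most of it. The place 30.5 kb upstream had 500, 700 and 1200 bp, with a log2 fold of 4.12 in the Shh-/-;Gli3-/- list. The place 17 kb downstream of the start, past the end of the gene, had 350, 300 and 1200 bp. Both places thus had peaks in all lists and were broadest in the double mutant.

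Dusp6 and Il17rd had the most H3K27ac of the genes in the WT list, setting aside the enlarged Fgfr2 window. Dusp6 (chr10:99263231-99267489, plus strand), the MAPK phosphatase and a target of ridge FGFs, had 7900 bp in WT, 8600 bp in Shh-/- and 14450 bp in Shh-/-;Gli3-/-. Its own promoter differed least between WT and the double mutant, with 5400 and 5600 bp, and had 4200 bp in Shh-/-, where the peak over the gene body measured 2250 bp and that in WT 3500 bp. A further Shh-/- peak of 700 bp, classed as distal, lay inside the stretch of the WT peak. Over the same promoter stretches the coverage was 5400, 4900 and 5700 bp, and with peaks within 1 kb joined the ratio of Shh-/- to WT was 1.02. The distal peaks covered 2500, 4400 and 8850 bp. All 10 WT distal peaks at Dusp6 overlapped a Shh-/-;Gli3-/- peak, beside 52.4% of all WT distal peaks. With a Shh-/- peak 7 of 10 overlapped, beside 39%. Several of the 10 WT peaks lay under a single broad Shh-/-;Gli3-/- peak, so they are not separate places. Such a peak, of 2250 bp (chr10:99266650-99268899), ran across the end of the gene and was part of the 8850 bp of distal coverage. There WT and Shh-/- had narrow peaks beyond the end of their promoter peaks. Neighbouring places at +35.3 and +36.6 kb, in exons of the annotated gene B530045E10Rik, had 350, 650 and 950 bp and 250, 500 and 1450 bp. A second pair, at +22.2 and +23.5 kb, held no WT peak, 200 bp each in Shh-/-, and 800 and 1250 bp in Shh-/-;Gli3-/-.

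Il17rd (chr14:27038941-27107286, plus strand) had 8550, 10550 and 14150 bp. It has annotated coding starts at the 5' end and inside the gene, and the peaks at all starts covered 4450, 4950 and 5650 bp. Near the internal start 3 peaks of each of the WT and Shh-/- lists, covering 3150 and 3250 bp, were matched by 1 unbroken Shh-/-;Gli3-/- peak of 4100 bp (chr14:27065400-27069499). The intronic place 2.88 kb past the internal start was nearly the same in all lists, at 1150, 1100 and 1250 bp, and had the highest log2 fold of the distal places, 4.53, 4.58 and 5.31. The next place, at +4.48 kb, had 1150, 800 and 1850 bp. An intronic place 5.89 kb from the first start had no WT peak, 300 bp in Shh-/- and 1500 bp in Shh-/-;Gli3-/-. With the RefSeq span of Fgfr2, 2 places in the 10 windows had a peak in WT and in Shh-/-;Gli3-/- but not in Shh-/-. Both were in introns of Il17rd, at 11.6 kb (250 and 450 bp) and 18.3 kb (150 and 300 bp) from the nearest start. The first (chr14:27050600-27051049) ended just before a Shh-/- peak at chr14:27051100-27051349. The FDR of the WT peak was 0.00153 at the first place and 0.168 at the second.

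Etv4 and Etv5, the ETS factors switched on by FGF signalling in the mesenchyme, had few distal peaks. Etv5 (chr16:22381309-22439719, minus strand) had a single WT peak of 750 bp, 3 Shh-/- peaks covering 1350 bp and 4 Shh-/-;Gli3-/- promoter peaks covering 1950 bp. A Shh-/-;Gli3-/- peak of 250 bp in an intron, 24.3 kb from the start, was its only distal peak in any list. The Etv5 window ratio of the double mutant was 2.93 to WT and 1.63 to Shh-/-, and both values were the same with FDR below 0.05. With lists cut to equal covered length they were 0.533 and 0.296. Etv4 (chr11:101769742-101785371, minus strand) had 1700, 2250 and 1800 bp, with 850, 1100 and 1300 bp at its promoter. Its intronic place 13 kb from the start went the other way from most, with 450 bp in WT, 200 bp in Shh-/- and none in Shh-/-;Gli3-/-, and no distal Shh-/-;Gli3-/- peak was left in the window.

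Taking the promoters together, all 10 genes had a promoter peak in every list, beside 44.1%, 48.1% and 46.2% of all coding genes in the WT, Shh-/- and Shh-/-;Gli3-/- lists. The median promoter coverage of the 10 genes was 1800, 2025 and 3275 bp, beside 750, 800 and 950 bp over all genes with a promoter peak. These medians use the annotated span of Fgfr2, where its promoter coverage was 4500, 4200 and 5600 bp. With the RefSeq span it was 500, 750 and 700 bp, below the median of all genes in each list. The medians of the 10 genes are then lower in each list, and that of Shh-/- no longer exceeds that of WT. From WT to Shh-/- the summed promoter coverage was at least 1.5 times higher at 1 gene (Etv5), beside 26% of 8160 genes, and lower at 1 (Fgf10), beside 5.76%. With the RefSeq span, Fgfr2 reached 1.5 times as well. In the double mutant against WT, promoter coverage was at least 1.5 times higher at 4 genes (Fgf10, Spry4, Etv4 and Etv5), beside 32.5% of 8179 genes, and lower at 0, beside 2.35%. The sums do not give the width of single peaks. At Etv5 the coverage lay in 1, 3 and 4 peaks in the 3 lists, the widest of 750, 900 and 950 bp. The widest Spry2 peak was 1850 bp in WT and 4450 bp in the double mutant, without a call. Against Shh-/-, promoter coverage in the double mutant was higher at 2 genes (Fgf10 and Spry1), beside 18.2% of 8635 genes, and lower at 0, beside 8.96%. Each gene is 10% of the set, and all these shares lay within 2 genes of the background. With the RefSeq span of Fgfr2, the promoter coverage of all genes summed to 21300 bp in WT, 21350 bp in Shh-/- and 29850 bp in Shh-/-;Gli3-/-. It was held by 25, 24 and 16 peaks, so the double mutant had fewer and broader promoter peaks. Counting every peak inside the same joined stretches, the sums were 21750, 23050 and 29950 bp, and the genes past 1.5 times numbered the same in each comparison.

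The distal peaks differed more between the lists than the promoters. With the RefSeq span of Fgfr2 they covered 11650 bp in 42 WT peaks, 19850 bp in 75 Shh-/- peaks and 33650 bp in 71 Shh-/-;Gli3-/- peaks. The ratios to WT were 1.7 and 2.89, beside 1.48 and 2.57 for distal peaks of the whole lists. In the annotated windows 35 of 66 WT distal peaks overlapped a Shh-/- peak by at least 1 bp (53%, Wilson 95% confidence interval 41.2 to 64.6), beside 39% of all WT distal peaks. With a Shh-/-;Gli3-/- peak, 41 of 66 overlapped (62.1%, 50.1 to 72.9), beside 52.4%. In the other direction 35 of 101 Shh-/- distal peaks overlapped a WT peak (34.7%, 26.1 to 44.3), beside 26.5%, and 25 of 102 Shh-/-;Gli3-/- distal peaks did so (24.5%, 17.2 to 33.7), beside 22.7%. The intervals cover counting error over peaks, which are neighbours and not independent. The interval of the first share lay above the value for the whole list, and the other 3 intervals included theirs. With the RefSeq span of Fgfr2 the shares were 59.5%, 71.4%, 36% and 26.8%, and the interval of the second (56.4 to 82.8) then also lay above its value for the whole list. The median width of these WT distal peaks was 200 bp, or 225 bp with the RefSeq span, beside 150 bp over the whole list. A wider peak meets the 1 bp rule more easily, and the part played by width was not tested.

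**Figure D4:**
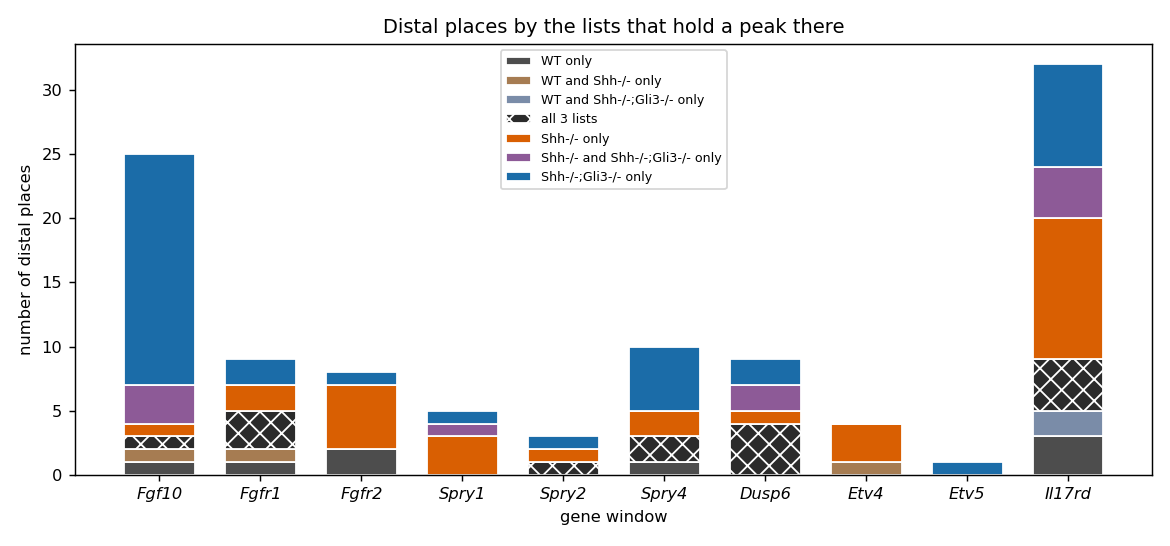
Stacked bars count the distal places in each gene window (RefSeq span for Fgfr2) by the lists that hold a peak there. Fgf10 has 18 places with a Shh-/-;Gli3-/- peak alone, and Il17rd has 11 with a Shh-/- peak alone. Over the whole lists, 22.7% of Shh-/-;Gli3-/- and 26.5% of Shh-/- distal peaks overlapped a WT peak.

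Joined across lists, and leaving out stretches that touched a promoter peak, there were 106 distal places in the 10 windows (RefSeq span for Fgfr2). Of these, 15 had a peak in every list, with a median of 1000 bp in the list where they were broadest and values from 250 to 2100 bp. They were found at Fgf10, Fgfr1, Spry2, Spry4, Dusp6 and Il17rd. A Shh-/- peak alone was present at 29 places and a Shh-/-;Gli3-/- peak alone at 39, both with a median of 150 bp. Both mutants but not WT had a peak at 10 places, with a median of 450 bp and a widest value of 1500 bp at Il17rd. A WT peak with no peak in either mutant was present at 8 places, with a median of 150 bp, and 3 places had a peak in WT and Shh-/- alone. Such places were not counted over the genome. Over the whole lists, 26.5% of Shh-/- and 22.7% of Shh-/-;Gli3-/- distal peaks overlapped a WT peak. Most mutant distal peaks thus had no WT peak across the genome as well.

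Of 45 other genes of the FGF pathway, 44 were matched in the annotation. They were 10 ligand, 3 receptor, 18 adaptor and kinase, 7 feedback and 6 transcription factor genes. The adaptor and kinase genes, which are used in most cells, had a promoter peak at 18 of 18 genes in each list. The promoters of the ridge ligand genes were nearly bare: Fgf4, Fgf8 and Fgf17 had no promoter peak in any list, and Fgf9 had one only in Shh-/- (500 bp). Their windows were not all bare. In the WT, Shh-/- and Shh-/-;Gli3-/- lists the Fgf8 window held 2150, 1900 and 2350 bp. That of Fgf17 held 1050, 800 and 900 bp, and that of Fgf4 344, 194 and 294 bp. Of the testable genes, 11 of 41 were higher by 1.5 times in Shh-/- than in WT and 0 lower, beside 27.1% and 4.16% of all genes. For the double mutant against WT the counts were 11 higher and 1 lower of 40, beside 36.4% and 1.86%. Against Shh-/- they were 7 higher and 5 lower of 42, beside 18.8% and 7.14%. The medians were 1.17, 1.28 and 1.02, all a little below those of all genes. The largest differences between Shh-/- and WT were at Mapk3 (the kinase ERK1), from 3500 to 6300 bp, Shc1, an adaptor, from 3450 to 6050 bp, Cbl, a ubiquitin ligase, from 1450 to 3450 bp, and the receptor gene Fgfrl1, from 800 to 2300 bp. In the double mutant the largest were at Spred2, a relative of the Sprouty genes, from 2850 bp in WT to 6600 bp, Ets1, from 1050 to 3900 bp, Map2k1 (the kinase MEK1), from 3550 to 5600 bp, Fgf18, from 3150 to 5000 bp, and Flrt3, an FGFR partner, from 1050 to 2750 bp. Spred2 also stood in Shh-/- at 4350 bp. These values are totals of the windows, which can hold distal peaks and promoters of neighbours. Own promoter coverage in WT and Shh-/- was 300 and 500 bp at Mapk3 and 2300 and 2600 bp at Shc1. It was 600 and 800 bp at Cbl, 650 and 900 bp at Fgfrl1, and 1900 and 2500 bp at Spred2. In WT and the double mutant it was 1900 and 2200 bp at Spred2 and 0 and 550 bp at Ets1. It was 300 and 650 bp at Map2k1, 650 and 1050 bp at Flrt3, and 0 bp in both lists at Fgf18.

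Short sequence matches were rare at the distal peaks. The letters searched, on both strands in 300 bases around the position of the largest statistic, were GACCACCCA for GLI and CCGGAAGT for the core that ETS factors share, with ACCGGAAGT as a longer ETS form that contains that core. With the RefSeq span of Fgfr2, GLI matched 0 of 42 WT, 1 of 75 Shh-/- and 0 of 71 Shh-/-;Gli3-/- distal peaks at the 10 genes. The shares of all distal peaks of these lists were 0.369%, 0.218% and 0.218%. The match was at chr8:25543164-25543172, in the Fgfr1 intron, on the minus strand, and reads TGGGTGGTC on the plus strand printed above. It lay inside the Shh-/- peak (25543100 to 25543399) and the Shh-/-;Gli3-/- peak (25542700 to 25543549), and outside the WT peak beside it. The ETS core matched 1 Shh-/- peak, at Spry4, beside 0.473% of all Shh-/- distal peaks, and the longer form matched none. None of 8 RefSeq promoter sequences of 7 of the genes held any of these letters, beside 3.89% of 32851 promoters with the ETS core and 0.253% with GLI.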

How the data were processed

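The authors aligned reads to mm10 and called H3K27ac peaks per genotype with CisGenome 2.1.0, each against the input of that genotype. Bowtie2 2.2.5 is also listed in the submitters' processing notes. The deposited lists give each peak's width in steps of 50 bp, the score (the largest value of the caller's statistic), the log2 fold over input, the −log10 of a p-value and the FDR, a q-value that reaches 0.35, 0.186 and 0.109 in the WT, Shh-/- and Shh-/-;Gli3-/- lists. The log2 fold deposited by the authors is relative to a different input in each list. It was used only within a list, except in the alternative with a log2 fold cutoff. That alternative applied the same cutoff to every list before comparing them. Its ratios, counts and shares between lists therefore depend on the different inputs as well. The −log10 p-values deposited by the authors were not used for results. Each list is attached to the first replicate of its genotype, the labels do not state whether replicates were pooled, and groups were taken from sample titles because the genotype entry reads wild type for all samples. Libraries were amplified with 12 PCR cycles, and read depths were not used here. The lists do not state whether positions count from 0 or 1.

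Peaks were assigned to a gene when they touched its GENCODE M21 span with 50 kb on each side, and covered bp was clipped at the window. Promoter peaks overlapped a window from 2 kb before to 1 kb after a coding transcript start. A gene was called higher or lower at 1.5 times the covered bp, with at least 500 bp in 1 list. Computations used Python 3.11.15, numpy 2.4.6, pandas 2.3.3, scipy 1.17.1 and pysam 0.24.0. The code was tested on simulated data, a copy of the WT list with slightly trimmed peaks: 100 of 100 genes whose peaks kept 0.5 of their width were called lower, 1 of 100 that kept 0.8, and 1 of 12090 others. The trimming largely set these outcomes in advance, so they check the code and give no error rate for the real lists. Named were all 10 genes, the other FGF genes with the 5 largest differences in covered bp for each mutant against WT, all own promoter peaks, and distal places of at least 1000 bp or with the patterns described. The genes and lists were chosen with earlier results of these data known. Alternatives were FDR below 0.05, equal numbers of peaks, equal covered length, log2 fold of at least 3, width of at least 500 bp, peaks within 1 kb joined, flanks of 10 and 100 kb, division by the list total, distal peaks only, whole peaks and 3 other overlap rules. The RefSeq span of Fgfr2, the totals without Fgf10 and all alternatives for promoter coverage (among them the coverage of all peaks in the joined promoter stretch) were chosen after seeing the data. A further marker list is not reported here.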

Additional observations from a re-analysis of the deposited data

How the results depend on the processing

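No paired analysis was possible because the replicates of a genotype share 1 deposited list, and for the same reason leaving out a replicate could not be run. Depth, and how many embryos stand behind each peak, were not available to the comparisons, so the limit on every count is the single list per genotype. Shares over all coding genes were computed for the main settings only, so the counts of genes in this section have none beside them. The total of the 10 windows for Shh-/-;Gli3-/- over WT was 1.04 with coverage divided by the list total, and its other alternatives, with those of the other totals, stayed within 1.5 times of the values reported. Division by the list total also put Fgfr1 at 0.935, Il17rd at 1, Fgfr2 at 0.892 and Etv4 at 0.64 for the double mutant over WT, and left 0 genes higher in Shh-/- than WT, 2 higher and 1 lower in the double mutant than WT, and 1 higher and 1 lower in the double mutant than Shh-/-. With equal covered length 1 gene was lower in Shh-/- than WT, 2 were higher and 1 lower in the double mutant than WT, 1 was lower in the double mutant than Shh-/-, and promoters were lower at 1 gene for the double mutant against either list. Etv5 then stood at 0.533 (window and promoter) for the double mutant over WT and at 0.296 over Shh-/-, the latter 0.739 with a log2 fold of at least 3.

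The count of genes higher in Shh-/- than WT was 3 with FDR below 0.05, 4 (and 1 lower) with a log2 fold of at least 3, 2 (and 1 lower) with a width of at least 500 bp, 3 with peaks within 1 kb joined, 2 with flanks of 10 or 100 kb and 6 with distal peaks only. The promoter count was 2 with FDR below 0.05, a log2 fold of at least 3, joined peaks or the RefSeq span of Fgfr2. The count of genes higher in the double mutant than WT was 5 with a flank of 10 kb. Against Shh-/- it was 8 with a width of at least 500 bp and 1 (with 1 lower) for joined peaks, 1 gene was lower with the RefSeq span of Fgfr2 and 2 with distal peaks only. For promoters joined peaks left 1 gene higher, and Spry1 at 0.8.

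The share of WT distal peaks overlapped in Shh-/- was 39.4% with equal covered length, 100% with a width of at least 500 bp (4 peaks), 27.3% when overlap had to be reciprocal at 50%, and 71.2% when a gap of 500 bp was allowed. Overlap in the double mutant was 77.1% with FDR below 0.05, 50% with equal covered length, 100% with a width of at least 500 bp, 39.4% with joined peaks and 15.2% with reciprocal 50% overlap. The share of Shh-/- distal peaks overlapped in WT was 64.1% with equal covered length, 22.2% with a log2 fold of at least 3, 54.5% with a width of at least 500 bp, 23.8% with 50% of the peak covered, 17.8% with reciprocal overlap and 50.5% with the gap. For the double mutant it was 37.7% with equal numbers of peaks, 81% with equal covered length, 13.7% with 50% covered, 9.8% with reciprocal overlap and 38.2% with the gap. The cause of these changes was not tested.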
